A study of Homo sapiens with 36 samples.

Results

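The lysosomal genes described here were the rows of a gene-level RNA-seq count table whose symbols named lysosomal hydrolases and their activators, lysosomal membrane proteins, the calcium channel MCOLN1, the transcription factors TFEB and TFE3, or a subunit of the vacuolar proton pump (every symbol starting with ATP6V0 or ATP6V1). The rule gave 52 of the 25344 symbols in the table, and 39 of them were measured well enough to be tested, among 9847 tested genes. The cells were HMC3, an established human microglial line. They were grown with vehicle, with 25 µM or with 50 µM perfluorooctane sulfonate (PFOS), a persistent fluorinated surfactant, and sampled either directly after 24 h or after a further 24 h in medium without PFOS, called recovery here. Each of the 6 groups held 3 libraries that the labels call biological replicates, so 18 libraries were used. No source used here says whether these came from separate cultures, and p-values measure only the spread between these libraries, which may be technical.

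Lysosomes are acidic organelles that break down protein, glycan and lipid delivered by endocytosis, phagocytosis and autophagy, and microglia use them to clear debris. The vacuolar proton pump acidifies them: its V1 sector hydrolyses ATP in the cytosol and turns a rotor that drives protons through the V0 sector in the membrane. Many lysosomal genes carry a shared promoter element bound by TFEB and TFE3, which enter the nucleus when nutrient signalling at the lysosome falls or the organelle is stressed.

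The members were therefore searched for that element, whose core reads TCACGTGA, in the RefSeq promoter windows of GRCh38.p14, which run from 250 bases before to 50 bases after each start. Of the 52 members, 38 had a window. The core, searched on both strands, stood in 6 of these 38 (15.8%), against 1.18% of all 27305 genes with a window. The 6 were CTSA, GAA, LAMP1, MCOLN1, ATP6V0D1 and ATP6V1G1. The shorter E-box CACGTG, which lies inside TCACGTGA, stood in 11 of 38 (28.9%) against 8.77% of all genes, adding CTSD, NEU1, CD63, ATP6V0B and ATP6V0E2. The amino acid response element TGATGNAAN stood in 0 of 38 and in 4.45% of all genes. A match describes these letters only and is no evidence of binding.

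The windows of 5 members whose levels are described below are shown around their matches, with TCACGTGA or CACGTG in capitals. GAA holds 2 copies of the full core at chr17:80101490-80101570 on the plus strand, MCOLN1 holds 2 at chr19:7522568-7522630 on the plus strand, and ATP6V1G1 holds 1 at chr9:114587696-114587731 on the plus strand. ATP6V0B holds 2 E-boxes without the full core at chr1:43974888-43974941 on the plus strand. LAMP1, at chr13:113297032-113297258 on the plus strand, holds 6 E-boxes, of which 2 are full cores.
GAA: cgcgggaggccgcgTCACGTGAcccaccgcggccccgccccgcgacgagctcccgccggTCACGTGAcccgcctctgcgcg
MCOLN1: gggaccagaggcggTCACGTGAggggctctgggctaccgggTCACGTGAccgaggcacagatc
ATP6V1G1: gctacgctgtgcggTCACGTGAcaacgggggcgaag
ATP6V0B: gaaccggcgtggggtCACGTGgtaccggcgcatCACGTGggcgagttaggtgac
LAMP1: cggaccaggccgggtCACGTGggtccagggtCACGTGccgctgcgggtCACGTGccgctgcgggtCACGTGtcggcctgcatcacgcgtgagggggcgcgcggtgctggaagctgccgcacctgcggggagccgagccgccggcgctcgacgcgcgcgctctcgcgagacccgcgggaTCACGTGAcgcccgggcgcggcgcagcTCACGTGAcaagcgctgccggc

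The libraries were shallow, with total counts of 582233 to 4346627. The members together took 0.606 to 0.646% of the counts in vehicle at 24 h, 0.688 to 0.713% at 25 µM and 0.776 to 0.841% at 50 µM. After recovery the shares were 0.672 to 0.68% in vehicle, 0.717 to 0.739% at 25 µM and 0.79 to 0.824% at 50 µM, so the groups did not overlap within either time. Such a share is a sum in which abundant members weigh most, and PSAP, TPP1 and CD63 had the most counts (38197, 26972 and 16032). It does not show a rise of the whole set. In 50 µM PFOS 26 of the 39 tested members had a positive log2 change from vehicle and 13 a negative one at 24 h. After recovery these were 24 and 15. With 3 libraries against 3, an exact permutation test of such shares cannot go below p = 0.1. The 3 libraries of 50 µM after recovery stood apart. Ribosomal protein genes took 2.94, 7.58 and 5.03% of their counts in replicates 1, 2 and 3, against 1.21 to 2.43% in the other 15 libraries. The members' calls that rest on that group are given below also without replicate 2 where leaving it out ends them. Calls of genes outside the members were not checked in this way. None of 12 microglial markers passed the filter, 6 of them (among them AIF1, CX3CR1 and C1QA) had 0 counts in every library, and their summed level was 0 to 5.81 CPM (counts scaled to library size, as used throughout). Of 9 mesenchymal markers 8 passed, with a summed level of 13400 to 21300 CPM outside the 50 µM recovery group and 4140 to 12700 CPM within it. In bulk RNA a change in the number of cells of a type and a change in RNA per cell cannot be told apart.

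Measured members covered every role. The tested genes were 6 of 8 proteases, 6 of 6 glycosidases, 5 of 5 lipid hydrolases and activators, 4 of 5 membrane proteins, MCOLN1, 1 of 2 transcription factors, 7 of 9 V0 genes and 8 of 13 V1 genes, besides the antisense transcript ATP6V0E2-AS1. The other members had too few counts. LAMP1, which encodes a major glycoprotein of the lysosomal membrane, had 113 counts over all 18 libraries, from 0 to 15 in a library. Whether this is its level in the cells or comes from the authors' counting was not tested, since the counting tool and annotation are not known from the sources used here. Its paralogue LAMP2 was measured in every library, at 178 to 320 CPM. TFEB had 110 counts, from 0 to 21 in a library. The tissue-restricted pump isoforms were also low: ATP6V0A4 had 127 counts, ATP6V0D2 had 2, ATP6V1C2 and ATP6V1E2 had 50 each, ATP6V1G2 had 41, and ATP6V1B1 and ATP6V1G3 had 0. CTSK and CTSZ, both cysteine proteases, had 32 and 104. For a symbol at 0 in a library, 3 counts correspond to 0.67 to 5.03 CPM, which is the level that could have been missed, for counting error only.

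**Figure D1:**
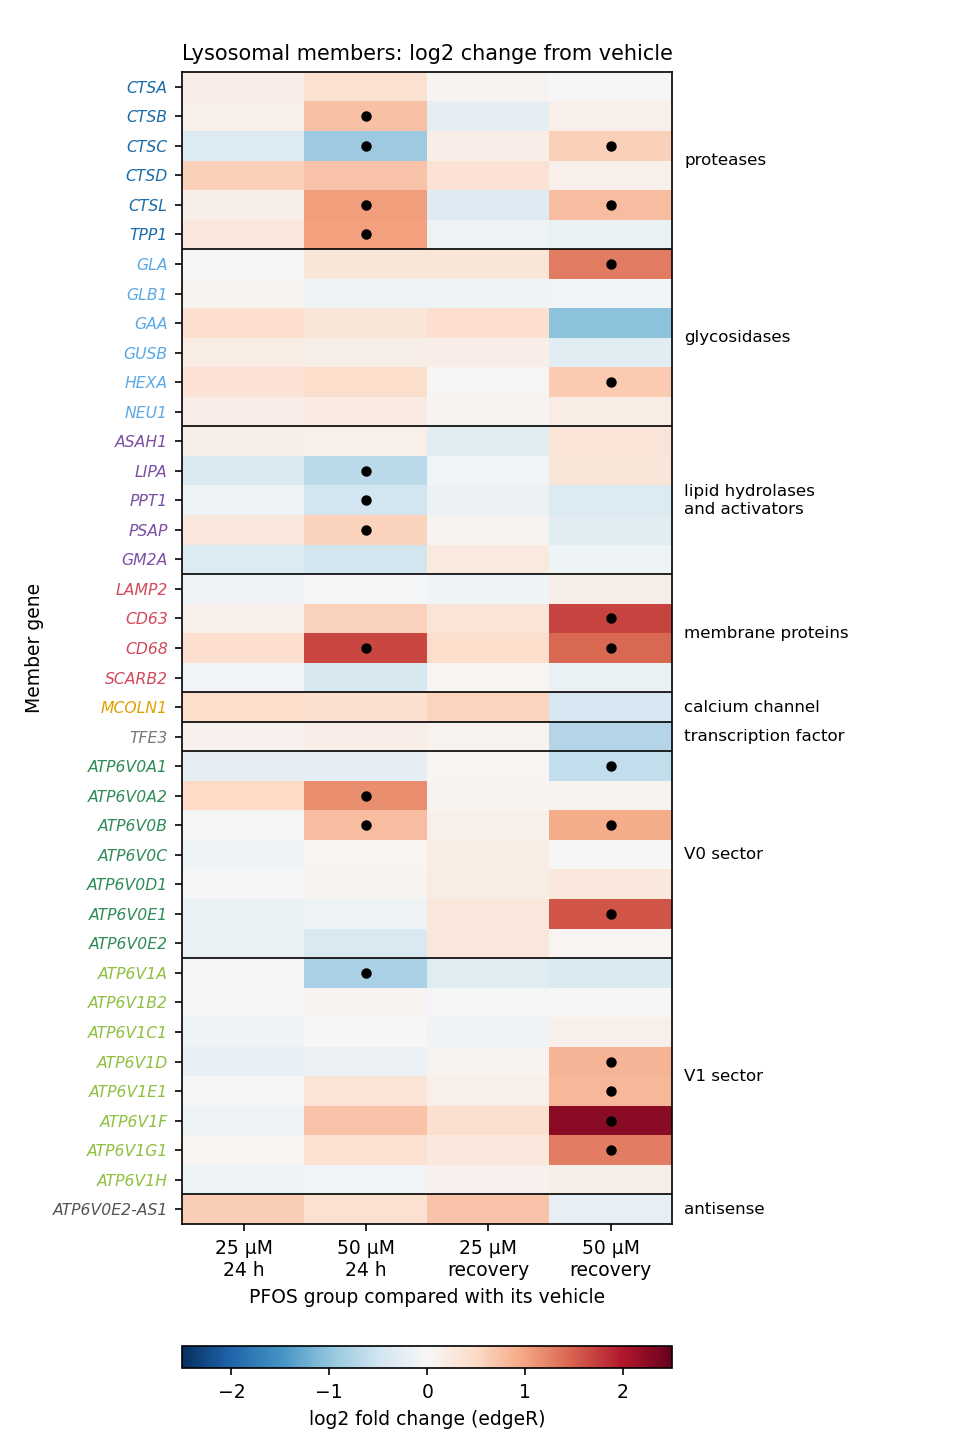
Log2 fold change from the matching vehicle (colour) of the 39 tested members (rows, grouped by role) in the 4 PFOS groups (columns), from edgeR over all 18 libraries. Black dots mark the members called at an adjusted p under 0.05: 0 at 25 µM at either time, 11 at 50 µM after 24 h and 13 at 50 µM after recovery.

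After 24 h in 50 µM PFOS the lysosomal genes split, with 7 of 39 higher and 4 lower than in vehicle. Most of the calls were hydrolases: CTSB, CTSL, TPP1 and PSAP rose while CTSC, LIPA and PPT1 fell. CD68 had the largest rise of any member, 3.16-fold. In the pump the proteolipid gene ATP6V0B and the a2 subunit gene ATP6V0A2 rose, and the catalytic subunit gene ATP6V1A fell. Called means a Benjamini-Hochberg adjusted p under 0.05 over all 9847 genes in edgeR's quasi-likelihood test. Of all genes tested 18.8% were called in this comparison (9.18% higher and 9.59% lower), against 28.2% of the members, and the members' median log2 change was 0.16 against 0.01 over all genes. The libraries of the 2 groups did not overlap for 16 of the 39 members, and for 41.4% of all genes. With every library thinned to the smallest total, the calls for ATP6V0A2, ATP6V0B, LIPA and PPT1 were lost.

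Among the proteases 3 of 6 rose and 1 fell. CTSB, a cysteine protease of broad specificity, stood at 406, 363 and 408 CPM in vehicle and at 639, 689 and 638 CPM in 50 µM PFOS. All 3 treated libraries lay above all 3 controls, and the log2 change was 0.74 ± 0.15 (SE from the fit to all 18 libraries, n = 3 and 3, edgeR adjusted p = 0.00163). CTSL, an endopeptidase at chr9:87726119-87731469, went from 37.6, 55.1 and 52.1 CPM to 100, 87.6 and 116 CPM, a log2 change of 1.04 ± 0.23 (edgeR adjusted p = 0.00278). TPP1, which removes tripeptides from protein ends, stood at 686, 499 and 567 CPM in vehicle and at 1251, 1230 and 1075 CPM in 50 µM PFOS (1.02 ± 0.23, edgeR adjusted p = 0.00365). For both genes the groups were fully separated. CTSC, the dipeptidyl peptidase that activates granule serine proteases, lies at chr11:88293592-88337736. It went the other way, from 152, 158 and 169 CPM to 63.1, 101 and 89.2 CPM, again without overlap (-0.92 ± 0.21, edgeR adjusted p = 0.00446). CTSD, the main aspartic protease, read 198, 219 and 234 CPM in vehicle and 352, 308 and 405 CPM in 50 µM PFOS. Its groups were separated too, but its log2 change of 0.71 had an adjusted p of 0.0669 in edgeR and was not called. CTSA, which also protects NEU1 and GLB1 in a complex, had a log2 change of 0.37 (edgeR adjusted p = 0.056).

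The lipid-handling hydrolases and activators moved in both directions, with 1 of 5 higher and 2 lower. LIPA, the acid lipase that frees cholesterol and fatty acids from lipoprotein lipid, fell from 105, 92.2 and 91.3 CPM to 63.1, 51.9 and 63.7 CPM. No treated library reached the lowest control, and the log2 change was -0.67 ± 0.19 (edgeR adjusted p = 0.0178). PPT1, which removes fatty acids from acylated proteins, fell from 338, 367 and 354 CPM to 230, 268 and 260 CPM (-0.48 ± 0.13, edgeR adjusted p = 0.0107). PSAP, the precursor of the saposins that present sphingolipids to their hydrolases, rose from 997, 915 and 992 CPM to 1432, 1352 and 1525 CPM (0.57 ± 0.17, edgeR adjusted p = 0.0206). These groups did not overlap for either gene. The calls for these 3 genes were each lost in some fits that left out 1 library. That of PSAP was lost without any 1 of 4 libraries (vehicle 2 or 3, or 50 µM 1 or 3), that of LIPA without vehicle 1 or 50 µM 2, and that of PPT1 without 50 µM 1, with adjusted p up to 0.0911, 0.0827 and 0.0617 in edgeR. The RefSeq span of LIPA also overlaps IFIT1, IFIT2, IFIT3 and IFIT5, and that of PPT1 overlaps CAP1. Because the libraries carry no strand mark, reads in shared stretches cannot be told apart. ASAH1, the acid ceramidase, and GM2A, an activator of ganglioside hydrolysis, had log2 changes of 0.12 and -0.47 and were not called.

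None of the 6 glycosidases was called by edgeR at 24 h (1 had an unadjusted p under 0.05), although 5 had a positive log2 change and their median was 0.26. The largest was that of HEXA, the alpha subunit of beta-hexosaminidase, at 0.43 (edgeR adjusted p = 0.0826). Its libraries read 89.4, 99.1 and 119 CPM in vehicle and 142, 103 and 170 CPM in 50 µM PFOS, so the groups overlapped. GLB1, the lysosomal beta-galactosidase, had the lowest change, -0.09.

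Among the membrane proteins only CD68 was called. CD68, a heavily glycosylated endolysosomal protein of phagocytes, lies at chr17:7579638-7582111. It stood at 17.6, 20.5 and 20.6 CPM in vehicle and at 54.9, 53 and 78.5 CPM in 50 µM PFOS. Every treated library was higher than any control, and the log2 change was 1.66 ± 0.23 (edgeR adjusted p = 2.93e-05). Under the alternatives it ranged from 1.415 to 2.258, the highest with every library thinned to the smallest total. CD63, a tetraspanin of late endosomes and secreted vesicles, read 299, 356 and 368 CPM in vehicle and 472, 578 and 475 CPM in 50 µM PFOS. The groups were separated, but the log2 change of 0.57 missed the threshold (edgeR adjusted p = 0.0571). LAMP2 read 224, 280 and 237 CPM in vehicle and 236, 252 and 228 CPM in 50 µM PFOS, with overlapping groups and a log2 change of -0.05. SCARB2, a sorting receptor of the lysosomal membrane, had a log2 change of -0.40 and was not called. MCOLN1, which releases calcium from lysosomes, and TFE3 had changes of 0.40 and 0.16 and were not called either.

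In the proton pump 2 of 15 tested subunit genes rose and 1 fell, 20% of them against 18.8% of all genes, and their median log2 change was 0.05. ATP6V0B, a proteolipid of the rotor ring, went from 100, 95.8 and 95.1 CPM to 152, 198 and 150 CPM (0.78 ± 0.18, edgeR adjusted p = 0.00353). ATP6V0A2, an isoform of the a subunit that lines the proton path, went from 20, 10.5 and 18.3 CPM to 33.1, 36.8 and 34.7 CPM (1.16 ± 0.34, edgeR adjusted p = 0.0186). Both genes were higher in every treated library than in any control. The call for ATP6V0A2 was lost without vehicle 2, 50 µM 2 or 50 µM 3, with adjusted p up to 0.136 in edgeR. ATP6V1A, the subunit that hydrolyses ATP, fell from 118, 159 and 130 CPM to 71.4, 66 and 94.3 CPM (-0.80 ± 0.20, edgeR adjusted p = 0.00741). Its groups did not overlap, and its call was lost without vehicle 2 (adjusted p = 0.0559). Its partner in the catalytic head, ATP6V1B2, had a log2 change of 0.07. The other 11 pump genes ranged from -0.38 for ATP6V0E2 to 0.72 for ATP6V1F.

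**Figure D2:**
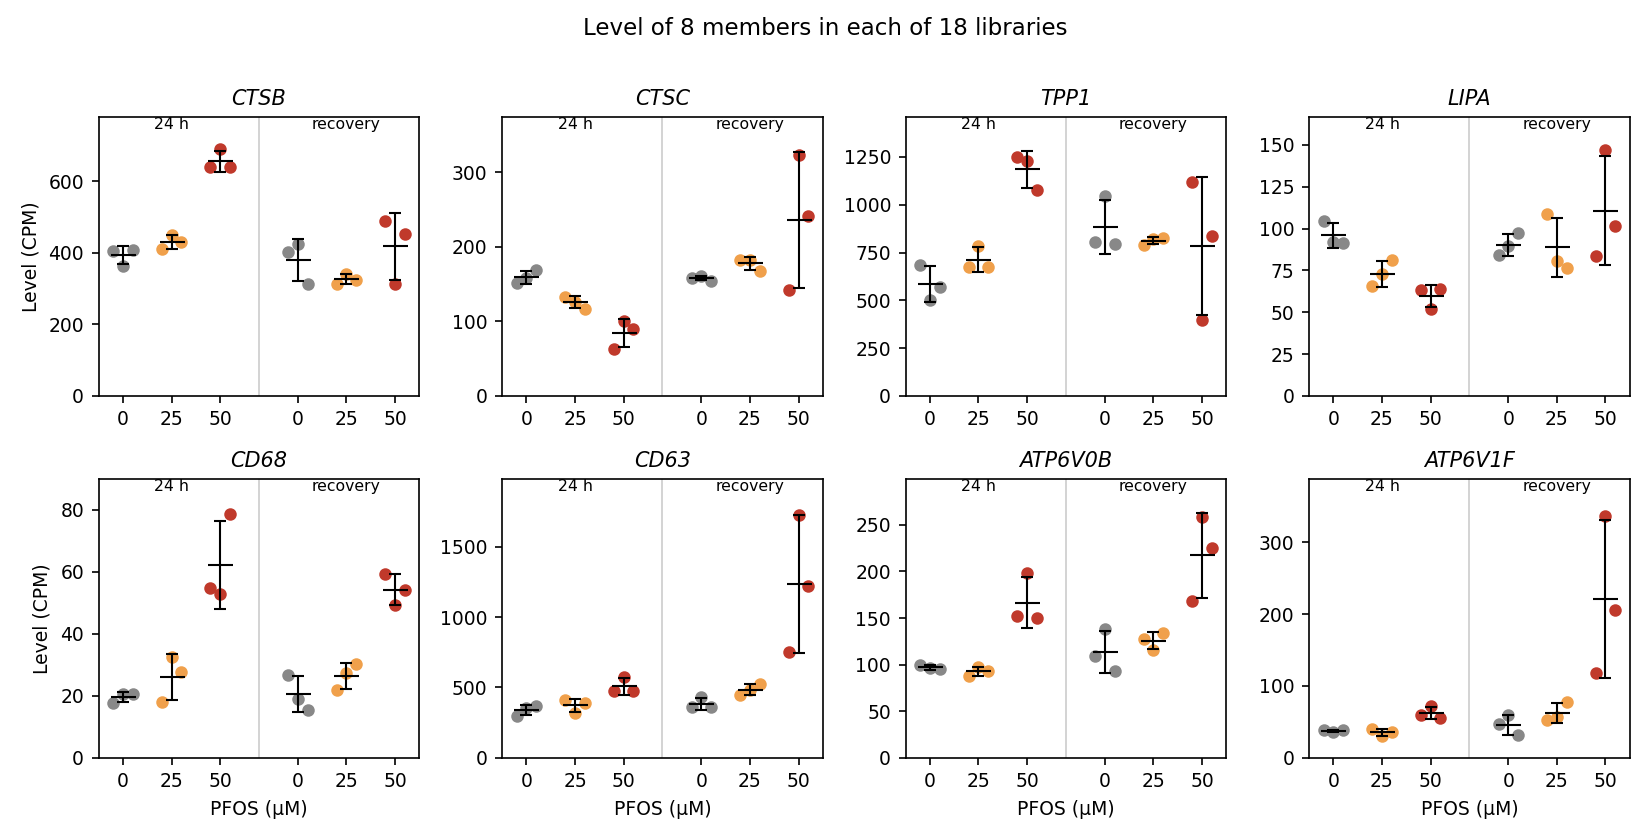
Level in CPM (vertical axis, from 0) of 8 members in each of the 18 libraries, by PFOS dose in µM at 24 h and after recovery. Points are libraries and black bars are the mean and SD of 3. CTSB, TPP1, CD68 and ATP6V0B are higher and CTSC and LIPA lower in all 3 libraries of 50 µM PFOS at 24 h than in vehicle, and CD63 and ATP6V1F reach 1729 and 337 CPM in replicate 2 of 50 µM after recovery.

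At 25 µM for 24 h none of the 39 members was called by edgeR or by DESeq2, against 1.24% of all genes tested in edgeR (0.782% higher and 0.457% lower). In edgeR 2 members had an unadjusted p under 0.05, CTSD and HEXA. CTSD read 340, 362 and 288 CPM against 198, 219 and 234 CPM in vehicle, all above the controls, with a log2 change of 0.60 ± 0.26 (edgeR adjusted p = 0.481). It was called when the model was fitted to the 6 libraries of these 2 groups alone. HEXA read 130, 142 and 125 CPM, above its 3 controls, with a change of 0.36. All 6 glycosidases had a positive change (median 0.18) and 13 of 15 pump genes a negative one (median -0.10). The median of all members was 0.02 and that of all genes 0.00 (-0.00411). The libraries of the 2 groups did not overlap for 15 of the 39 members, against 22.9% of all genes.

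The 2 doses were compared directly at 24 h. In 50 µM PFOS 4 members were higher than in 25 µM and 1 lower, where 7.4% of all genes were called (3.79% higher and 3.62% lower). CD68 was 1.24 ± 0.23 higher on the log2 scale (edgeR adjusted p = 0.00157), CTSL 0.89 ± 0.23, ATP6V0B 0.84 ± 0.18 and CTSB 0.61 ± 0.15, and ATP6V1A fell by 0.78 ± 0.20 (edgeR adjusted p = 0.0204). All 5 had separated groups. CD68 read 18, 32.4 and 27.7 CPM at 25 µM, and ATP6V1A read 140, 128 and 135 CPM. The libraries of the 2 doses did not overlap for 15 of 39 members and for 35.2% of all genes. Leaving out any 1 of the 25 µM libraries left 2 calls, leaving out 50 µM 1 or 2 left 3, and a fit to these 6 libraries alone gave 12. Thinning to the smallest library left only the call for ATP6V0B.

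After recovery from 50 µM PFOS 12 of 39 members were higher than in recovered vehicle and 1 was lower. Of 15 pump genes 6 rose, among them ATP6V1F 4.76-fold, ATP6V0E1 2.97-fold and ATP6V1G1 2.42-fold, and ATP6V0A1 fell. Of 4 membrane proteins CD63 rose 3.21-fold and CD68 2.71-fold. Of 17 hydrolases and activators CTSL, CTSC, GLA and HEXA were higher, and none of the 5 lipid hydrolases and activators was called by edgeR (1 had an unadjusted p under 0.05). Of all genes tested 28.4% were called here (17.7% higher and 10.7% lower), against 33.3% of the members. The members' median log2 change was 0.12 and that of all genes -0.05. The libraries did not overlap for 13 of 39 members and for 31.3% of all genes. Without replicate 2 of the treated group 11 members were higher and 2 lower, and 10 of the 13 calls were shared. A fit to these 6 libraries alone lost ATP6V0A1, ATP6V1D, ATP6V1E1, ATP6V1G1, CTSC, CTSL and HEXA, and thinning to the smallest library lost ATP6V0A1, ATP6V0B, ATP6V1D, CD68, CTSC, CTSL and GLA. The SE and p-values given for 50 µM after recovery rest on a spread estimated over all 18 libraries. They do not measure the spread of its 3 libraries alone. Pairs of these 3 differed by a chi-square per degree of freedom of 4.46 to 21.4, against 1.29 to 10.6 in the other groups.

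Among the membrane proteins CD63 changed most. It stood at 360, 434 and 361 CPM in recovered vehicle and at 755, 1729 and 1224 CPM after 50 µM PFOS. All 3 treated libraries were higher than the controls, with a log2 change of 1.68 ± 0.21 (edgeR adjusted p = 2.09e-05), or 1.35 (adjusted p = 3.61e-06) without replicate 2. CD63 lies at chr12:55723535-55730041, overlapping RDH5. CD68 read 26.8, 19.1 and 15.6 CPM in vehicle and 59.3, 49.2 and 54.2 CPM after 50 µM PFOS (1.44 ± 0.24, edgeR adjusted p = 1.93e-04), and 1.52 without replicate 2. It was thus separated from its controls at both times. LAMP2 read 199, 191 and 254 CPM and 210, 320 and 178 CPM, with overlapping groups and a change of 0.15.

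In the V1 sector 4 of 8 genes rose after recovery and 0 fell. ATP6V1F, a rotor subunit at chr7:128862856-128865847, went from 46.7, 59.5 and 32 CPM to 119, 337 and 206 CPM. The lowest treated library was above every control, and the log2 change was 2.25 ± 0.28 (edgeR adjusted p = 2.09e-05), or 1.78 without replicate 2. ATP6V1D, the rotor shaft, went from 116, 153 and 148 CPM to 172, 356 and 218 CPM (0.84 ± 0.20, edgeR adjusted p = 0.00336), with 0.47 (adjusted p = 0.042) without replicate 2. ATP6V1E1 and ATP6V1G1 form the outer stalks. ATP6V1E1 went from 140, 175 and 149 CPM to 177, 359 and 289 CPM (0.83 ± 0.19, edgeR adjusted p = 0.00317), with 0.57 (adjusted p = 0.0252) without replicate 2. ATP6V1G1 went from 64.3, 103 and 86.5 CPM to 109, 314 and 195 CPM (1.27 ± 0.27, edgeR adjusted p = 0.00125), with 0.80 (adjusted p = 0.0142) without replicate 2. For all 4 genes the groups were separated, although replicate 1 of the treated group lay just above the highest control for ATP6V1E1 and ATP6V1G1. The other 4 V1 genes, ATP6V1A, ATP6V1B2, ATP6V1C1 and ATP6V1H, ranged from -0.37 to 0.16 and were not called.

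In the V0 sector 2 of 7 rose and 1 fell. ATP6V0E1, a small membrane subunit, went from 78.1, 110 and 107 CPM to 148, 444 and 288 CPM (1.57 ± 0.26, edgeR adjusted p = 1.38e-04), and 1.11 without replicate 2. ATP6V0B went from 109, 139 and 93.4 CPM to 169, 259 and 225 CPM (0.93 ± 0.17, edgeR adjusted p = 4.68e-04), and 0.77 without replicate 2. Both groups of both genes were separated. ATP6V0A1, an isoform of the a subunit, read 121, 79.4 and 98 CPM in vehicle and 81.4, 38.3 and 76.4 CPM after 50 µM PFOS. Its groups overlapped, and its log2 change of -0.61 ± 0.23 (edgeR adjusted p = 0.0454) became -0.31 (adjusted p = 0.312) without replicate 2 and was also lost without vehicle 1 or 3. RefSeq names pseudogene copies of ATP6V0E1, ATP6V1E1, ATP6V1F and ATP6V1G1, as well as of CTSL, and no source used here says how the authors' counting divided reads among such copies. The spans of ATP6V0E1 and ATP6V1D overlap those of SNORA74B and GPHN. Of the 23 members called in any comparison, 12 have a span that overlaps another RefSeq gene.

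**Figure D3:**
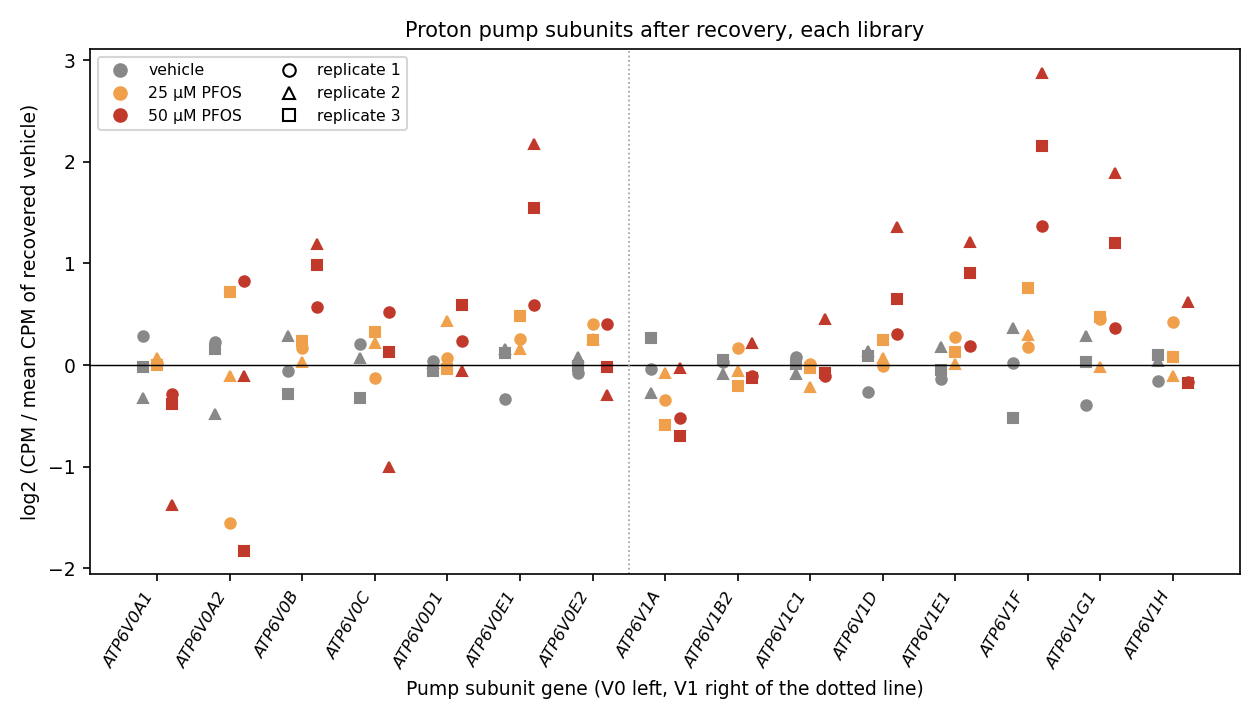
Log2 ratio of each recovered library's CPM to the mean CPM of recovered vehicle (vertical axis) for the 15 tested pump subunit genes, with V0 genes left and V1 genes right of the dotted line. Colours are doses and symbols are replicates, and replicate 2 of 50 µM (red triangles) is the highest red point for the 6 genes that rose.

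The 3 treated libraries stood in the same order for these 6 pump genes, CD63, CTSC, CTSL, HEXA, LIPA and ASAH1. Replicate 2 was highest, then 3, then 1. This is also the order of the libraries' share of ribosomal protein counts, 7.58, 5.03 and 2.94%. Of all 39 members 20 were highest in replicate 2 and 16 were lowest there, among them TPP1, CTSD, PSAP, GAA, TFE3 and ATP6V0A1. The part of these library differences, and of the lower mesenchymal marker level of this group, in the calls was not tested beyond leaving replicate 2 out.

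Among the hydrolases GLA and HEXA, both glycosidases of glycolipids, were higher after recovery. GLA, alpha-galactosidase A at chrX:101397803-101407925, went from 19.9, 25.2 and 30.7 CPM to 50, 91.1 and 43.1 CPM (1.29 ± 0.27, edgeR adjusted p = 0.00117), with 0.86 (adjusted p = 0.0243) without replicate 2. HEXA went from 121, 103 and 125 CPM to 171, 194 and 185 CPM (0.66 ± 0.17, edgeR adjusted p = 0.00608), and 0.62 without replicate 2. Each had separated groups, and the 3 HEXA values lay close together. The RefSeq span of GLA overlaps that of RPL36A-HNRNPH2, which is also in the count table. CTSL read 58.2, 61.8 and 65 CPM in vehicle and 65.1, 152 and 94.5 CPM after 50 µM PFOS. Its lowest treated library barely passed the highest control, and the log2 change of 0.76 ± 0.23 (edgeR adjusted p = 0.016) became 0.35 (adjusted p = 0.26) without replicate 2. CTSC, at 158, 160 and 155 CPM in vehicle, read 142, 323 and 242 CPM. The groups overlapped, and its change of 0.59 ± 0.21 (edgeR adjusted p = 0.037) lost its call in 5 of 6 fits that left out 1 library (all but the one without 50 µM replicate 1), with 0.27 (adjusted p = 0.331) without replicate 2. GAA, the acid alpha-glucosidase that degrades glycogen, was low and scattered, at 48.3, 23.1 and 27 CPM in vehicle and 25.6, 5.47 and 16.7 CPM after 50 µM PFOS (-1.03, edgeR adjusted p = 0.0506). TFE3, at 95.8, 72.1 and 72.8 CPM in vehicle, read 69.8, 15.5 and 63.9 CPM, below every control, and was not called (-0.72, edgeR adjusted p = 0.0882). CTSD was not called either, with a mean of 210 CPM (SD 15.5) in vehicle and 230 CPM (SD 121) after 50 µM PFOS.

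After recovery from 25 µM PFOS none of the 39 members was called, and 0% of all genes were. In edgeR 1 member had an unadjusted p under 0.05, MCOLN1, and so did 693 of the 9847 genes. DESeq2 called 1 gene and 0 members. MCOLN1 read 55.3, 60.7 and 54 CPM against 32.2, 36.7 and 47.1 CPM in vehicle, with separated groups and a log2 change of 0.56 (edgeR adjusted p = 0.669). CD63 read 446, 479 and 526 CPM, each above the 3 controls, with a change of 0.33 (edgeR adjusted p = 0.797). The members' median was 0.10 and that of all genes -0.00126. The libraries did not overlap for 7 of 39 members and for 13.8% of all genes.

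The direct comparison of the doses after recovery called 12 members higher and 3 lower at 50 µM, where 22.1% of all genes were called (14.7% higher and 7.38% lower). ATP6V1F was 1.84 ± 0.29 higher on the log2 scale (edgeR adjusted p = 4.48e-04), CD63 1.35 ± 0.21, ATP6V0E1 1.29 ± 0.26, CTSL 1.08 ± 0.24, ATP6V1G1 1.01 ± 0.27 and CD68 1.00 ± 0.25. The 6 others were GLA, ATP6V0B, ATP6V1D, ATP6V1E1, HEXA and ASAH1, from 0.98 down to 0.58. ASAH1 read 63.7, 54 and 57.3 CPM at 25 µM and 66.3, 113 and 76.4 CPM at 50 µM, without overlap. GAA (-1.45 ± 0.39), MCOLN1 (-0.99 ± 0.28) and ATP6V0A1 (-0.66 ± 0.23) were lower. MCOLN1 stood at 30.2, 15.5 and 44.5 CPM after 50 µM PFOS, all under its values at 25 µM. Without replicate 2 of the 50 µM group 8 members were called, all higher, and 7 of the 15 calls were shared. The calls of 5 higher and 3 lower members were lost. ATP6V1G1 then had 0.56 (adjusted p = 0.139), GLA 0.58 (adjusted p = 0.203), ATP6V1D 0.38 (adjusted p = 0.155), ATP6V1E1 0.46 (adjusted p = 0.119) and ASAH1 0.32 (adjusted p = 0.375). GAA had -0.99 (adjusted p = 0.0751), MCOLN1 -0.64 (adjusted p = 0.131) and ATP6V0A1 -0.37 (adjusted p = 0.282). ATP6V1F (1.38), CD68 (1.07), CD63 (1.03), ATP6V0E1 (0.85), CTSL (0.67, adjusted p = 0.0479), ATP6V0B (0.66) and HEXA (0.58, adjusted p = 0.0432) kept their calls. Without 25 µM replicate 2, 6 were called, and GAA had -2.07 without 50 µM replicate 1. The libraries of the 2 doses did not overlap for 14 of 39 members and for 28.8% of all genes. With the count filter and the model run on these 6 libraries alone, 0 genes were called.

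Whether the 50 µM effect changed between the times was tested as an interaction, the recovery effect minus the 24 h effect. It was called for 8 of 39 members (6 higher and 2 lower), where 19.1% of all genes were called (11.6% higher and 7.42% lower). In the proteases the effect on CTSC went from a fall at 24 h to 0.59 after recovery (difference 1.50 ± 0.30, edgeR adjusted p = 0.00259). Its recovered groups overlapped, and its recovery effect was 0.27 and not called without replicate 2. The effect on TPP1 went from a rise to near 0 (-1.20 ± 0.33, edgeR adjusted p = 0.0157). TPP1 read 807, 1046 and 797 CPM in recovered vehicle and 1117, 397 and 839 CPM after 50 µM PFOS, so the groups overlapped. LIPA read 84.3, 89.4 and 97.5 CPM in recovered vehicle and 83.7, 147 and 101 CPM after 50 µM PFOS, also overlapping, and its effect differed by 0.97 ± 0.27 (edgeR adjusted p = 0.0167). PSAP differed by -0.83 ± 0.24 (edgeR adjusted p = 0.0205), with 1187, 1060 and 1093 CPM in recovered vehicle and 1130, 598 and 1071 CPM after 50 µM PFOS. CD63, ATP6V1F, ATP6V0E1 and ATP6V1D had a larger effect after recovery, by 1.11 ± 0.29, 1.53 ± 0.41, 1.68 ± 0.37 and 0.98 ± 0.28, with edgeR adjusted p of 0.0119, 0.0131, 0.0048 and 0.0203. The differences for ATP6V1D and LIPA lost their calls without 50 µM recovery replicate 2 (0.62 and 0.69, adjusted p = 0.0507 and 0.0552). The other 6 kept theirs, at 1.19 for CTSC, -0.88 for TPP1, -0.59 for PSAP, 0.79 for CD63, 1.06 for ATP6V1F and 1.23 for ATP6V0E1. That for ATP6V1D was also lost without vehicle 3 or 50 µM 3 at 24 h or recovered vehicle 1, and that for PSAP without vehicle 2 or 50 µM 3 at 24 h or recovered vehicle 1. Without 50 µM recovery replicate 1, 15 members were called. A fit to the 4 groups involved lost ATP6V1D, PSAP and TPP1, and thinning to the smallest library lost ATP6V1D, ATP6V1F, CD63 and LIPA. CD68, CTSL and ATP6V0B were called at each time with a difference of -0.22, -0.28 and 0.15 between the times, which was not called. Their calls after recovery were lost with the span trend removed and under thinning, and that of CTSL also without replicate 2, and the 24 h call of ATP6V0B was lost under thinning. CTSB read 401, 425 and 312 CPM in recovered vehicle and 488, 312 and 453 CPM after 50 µM PFOS, and its difference of -0.60 was not called.

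**Figure D4:**
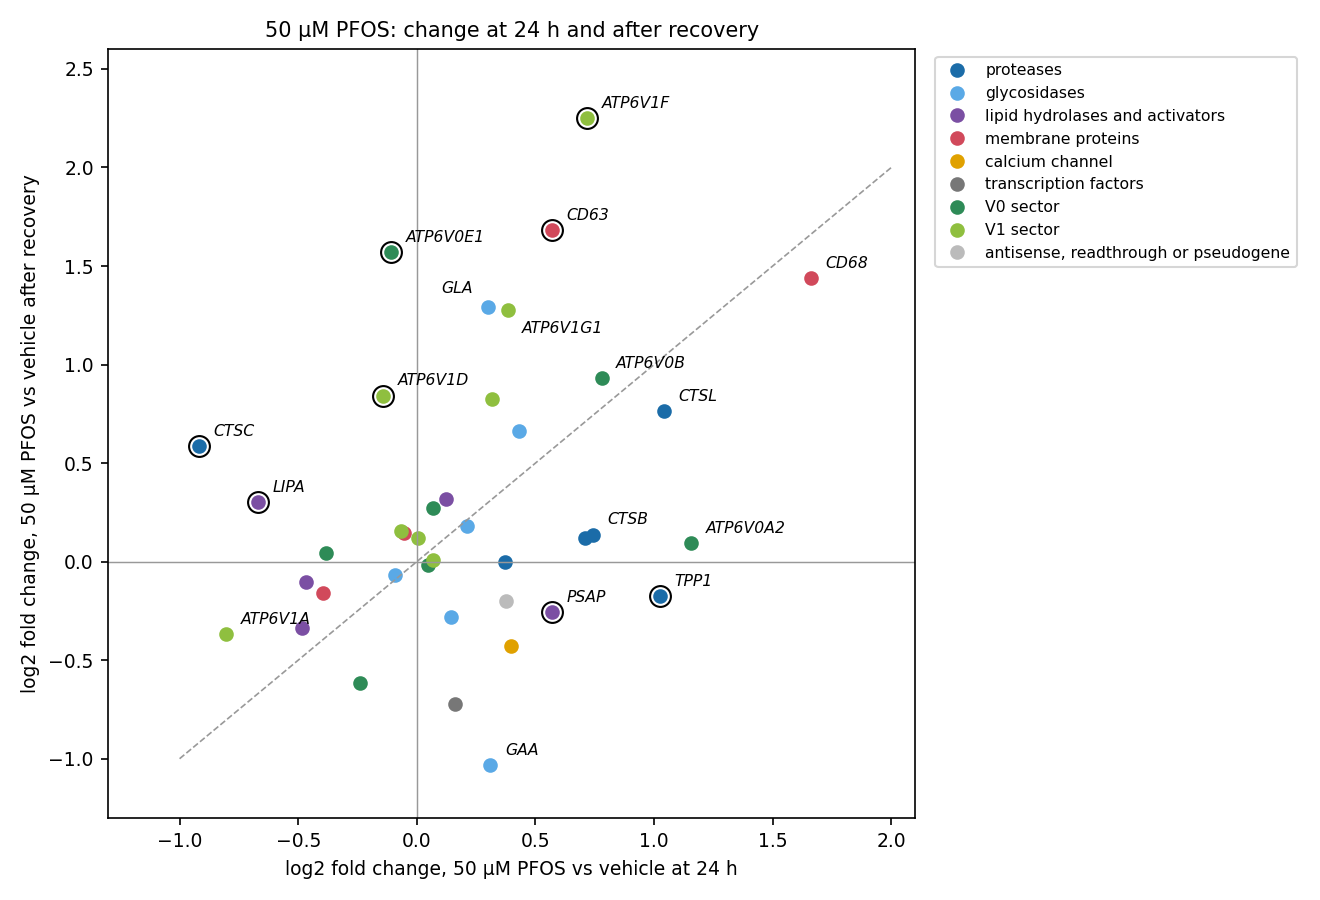
Log2 fold change of each of the 39 tested members in 50 µM PFOS against vehicle at 24 h (horizontal axis) and after recovery (vertical axis), coloured by role, with equal effects on the dashed line. Black rings mark the 8 members whose effect differed between the times in the interaction test, and ATP6V1F, at 0.72 and 2.25, lies farthest above the line together with ATP6V0E1 at -0.11 and 1.57.

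The 25 µM effect differed between the times for 0 of 39 members in edgeR, where 0.0203% of all genes were called, and for 0 in DESeq2, and 0 members had an unadjusted p under 0.05. Vehicle itself gave 0 member calls between recovery and 24 h in edgeR and in DESeq2, with 1 unadjusted p under 0.05. Of all genes 0.975% were called there (0.335% higher and 0.64% lower), and the members' median log2 difference was -0.00365. TPP1 had the most different level in vehicle on the positive side (0.60), with 807, 1046 and 797 CPM after recovery against 686, 499 and 567 CPM.

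The 5 tested members with the full core TCACGTGA in their window were set side by side. At 24 h in 50 µM PFOS their log2 changes were 0.37 for CTSA, 0.31 for GAA, 0.40 for MCOLN1, 0.07 for ATP6V0D1, a V0 subunit that couples the ring to the rotor, and 0.38 for ATP6V1G1, and 0 of 5 were called by edgeR. After recovery they were -0.00 for CTSA, -1.03 for GAA, -0.43 for MCOLN1, 0.27 for ATP6V0D1 and 1.27 for ATP6V1G1, of which only that of ATP6V1G1 was called. CTSB, PSAP, ATP6V0E1 and ATP6V1A had no window in the table used.

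Changes moved with gene size. Over 9781 tested genes with a RefSeq span (first to last base on the chromosome, introns included), Spearman's rho of the log2 change with span was -0.169 for 50 µM at 24 h and -0.308 after recovery. It was -0.109 and -0.261 for 25 µM. Over the 39 members, which share the same libraries, rho was -0.604 at 24 h and -0.214 after recovery in 50 µM. Of the 2446 genes with the shortest spans, up to 13410 bp, 36.5% were higher after recovery from 50 µM, as were 7 of 15 members. Of the 2445 genes with the longest spans 4.62% were higher, as were 0 of 4 members. CD68 (2474 bp), ATP6V1F (2992 bp), ATP6V0B (3336 bp), CTSL (5351 bp) and CD63 (6507 bp) are short, whereas ATP6V0E1 spans 51675 bp. With the trend on span removed from each library, an alternative added after seeing the data, CD68 had a change of 0.62 after recovery (edgeR adjusted p = 0.108) and ATP6V0B 0.24 (adjusted p = 0.218). CTSL had 0.31 (adjusted p = 0.316) and ATP6V0A1 -0.47 (adjusted p = 0.112). GAA (-1.09), LIPA (0.57) and TFE3 (-0.82) were called with this correction and not without it, with adjusted p of 0.0377, 0.0382 and 0.0488, so that 12 members were called and 9 calls were shared. ATP6V1F had 1.47 (adjusted p = 1.13e-04). At 24 h the same correction left 10 of the 11 calls, losing LIPA.

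**Figure D5:**
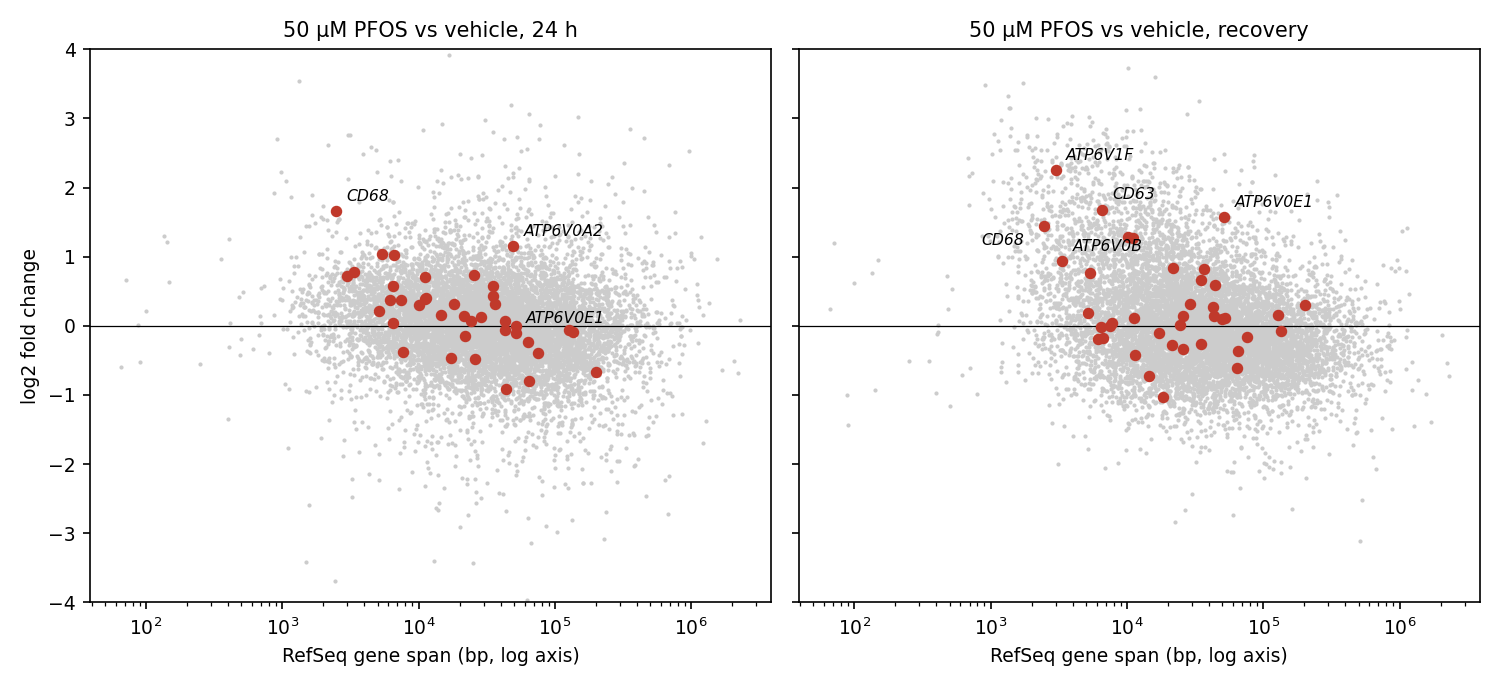
Log2 fold change in 50 µM PFOS against vehicle (vertical axis, -4 to 4) by RefSeq gene span in bp (log axis) for 9781 tested genes, at 24 h (left) and after recovery (right). Grey points are other genes, red points are the 39 members, and 10 genes at 24 h and 2 after recovery lie outside the axis. After recovery the short genes sit higher, with ATP6V1F at 2.25, while ATP6V0E1, of 51675 bp, sits at 1.57.

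Genes of the same organelle outside the members were taken from lists by function. Of 29 further lysosomal enzymes 3 rose and 0 fell at 24 h in 50 µM PFOS, among them the sulfatase ARSG (1.44 ± 0.48) and the aminopeptidase CTSH (0.73 ± 0.23). ARSG was low and scattered, with a mean of 3.87 CPM (SD 0.883) in vehicle and 10.4 CPM (SD 7.02) in 50 µM PFOS (edgeR adjusted p = 0.0383). After recovery 6 of the 29 enzymes rose and 4 fell, with MANBA, the beta-mannosidase, at 1.01 ± 0.29 and CTSH at 0.98 ± 0.23. Of 30 membrane proteins and transporters 4 rose and 2 fell at 24 h. NPC1, which exports cholesterol from lysosomes, rose by 1.04 ± 0.18 at 24 h and fell by 0.78 ± 0.20 after recovery. Its soluble partner NPC2 had 0.24 at 24 h and rose by 1.65 ± 0.27 after recovery, when 2 of the list rose and 3 fell. The recovered NPC2 means were 58.55 CPM (SD 15.8) in vehicle and 186.5 CPM (SD 88.1) after 50 µM PFOS, so the treated libraries were widely spread. ATP11A, a phospholipid flippase whose presence in lysosomes was not examined here, fell by 1.17 ± 0.37 after recovery (edgeR adjusted p = 0.0212). The amino acid sensor SLC38A9 (0.85 ± 0.22), the sialic acid exporter SLC17A5 (0.82 ± 0.27) and the cystine exporter CTNS (0.75 ± 0.25) rose at 24 h. The whole-gene background for these counts is the 18.8% and 28.4% given above. The calls of these wider lists, here and in the next paragraph, were not checked without replicate 2 of 50 µM after recovery.

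Of 17 genes for delivery of hydrolases, 3 rose and 2 fell at 24 h, and 1 rose and 4 fell after recovery. GNPTG, part of the enzyme that makes the mannose 6-phosphate tag, had 1.30 ± 0.33 at 24 h, the tag receptor IGF2R 0.96 ± 0.30 and the adaptor subunit AP3D1 0.79 ± 0.23. GNPTG was scattered, with 68.5 CPM (SD 30.1) in vehicle and 163 CPM (SD 65.9) in 50 µM PFOS at 24 h. Vehicle after recovery had 136 CPM (SD 63.2). IGF2R had 12.4 CPM (SD 5.89) and 26.8 CPM (SD 2.76) at 24 h, and 22.6 CPM (SD 6.7) in recovered vehicle. GGA2, an adaptor that sorts the tag receptors, was lower at both times, at -0.61 ± 0.20 and -0.67 ± 0.21 (edgeR adjusted p = 0.0377 and 0.024). SORT1, a sorting receptor, had -0.81 ± 0.28 and the retromer subunit VPS29 1.71 ± 0.27 after recovery. Both were scattered. SORT1 had 196.4 CPM (SD 81.9) in recovered vehicle and 113.7 CPM (SD 33) after 50 µM PFOS, and VPS29 had 55 CPM (SD 7.16) and 179.8 CPM (SD 104). Of 12 pump assembly and accessory genes 0 were called at 24 h by edgeR (1 had an unadjusted p under 0.05), and after recovery CCDC115, an assembly factor, rose (0.81 ± 0.24) and ATP6AP1, an accessory subunit, fell (-0.59 ± 0.20). Of 21 genes of nutrient signalling and control of TFEB and TFE3, 2 rose and 2 fell at 24 h, and 5 rose and 3 fell after recovery. FLCN, which acts on the Rag GTPases at the lysosome, rose by 1.00 ± 0.22 at 24 h, and DEPTOR, an inhibitor of mTOR, fell by 1.47 ± 0.32. ZKSCAN3, a repressor of lysosomal genes, rose by 0.79 ± 0.21 at 24 h, and YWHAH, a 14-3-3 protein, fell by 0.89 ± 0.27. LAMTOR5 and LAMTOR4, parts of the Ragulator scaffold, had 2.79 ± 0.32 and 2.41 ± 0.37 after recovery. The treated libraries were widely spread, with means of 141 CPM (SD 78.3) for LAMTOR5 and 100 CPM (SD 67) for LAMTOR4. Recovered vehicle had 19.8 CPM (SD 4.96) and 18.6 CPM (SD 6.36). The gene spans of LAMTOR5 and LAMTOR4 are 6672 and 5286 bp.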

How the data were processed

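RNA-seq of HMC3 cells was used in 18 libraries. The 18 H3K27ac CUT&Tag samples were not analysed here. Per the labels' protocols, TRIzol RNA went into poly(A)-selected Smart-seq2 libraries read as paired ends, a method that amplifies by PCR without molecular identifiers and without strand marks, so counting intervals and floors cover counting error only. The authors deposited raw, unscaled counts per gene symbol. The submitters' processing notes name Trimmomatic, STAR and DESeq2 with GRCh38, without versions. Counting tool, annotation and strand setting were not given in the sources used here. Total counts were 582233 to 4346627 per library, and 0 columns lacked a sample.

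Genes were kept by filterByExpr (minimum count 10, 6 groups), which left 9847 genes with 99.2% of counts. edgeR 4.0.16 in R 4.3.3 fitted 1 mean per group to all 18 libraries after TMM scaling, with quasi-likelihood tests, two-sided, adjusted by Benjamini-Hochberg over all genes, threshold 0.05. CPM use TMM library sizes. The median biological coefficient of variation was 16%. The script was tested on simulated data. Replicates of a group differed by a chi-square per degree of freedom of 1.29 to 21.4, and none were merged. The members and lists were chosen with earlier results of these data known. Values by library were given, for at least 1 PFOS group each, for members called in any comparison. The same holds for LAMP2, CD63, CD68, TFE3, MCOLN1 and CTSD, called or not. LAMP1 and TFEB, whose counts were too low to test, were given by their total and range. Of the wider lists, called genes with the largest changes were named, up to 4 at 24 h and 2 after recovery. For 1 gene so chosen the result is not reported here. Alternatives were RLE size factors, DESeq2 1.42.0, no count filter, a minimum count of 30, fits to the compared groups alone, counts thinned to the smallest library, the replicate block, each library left out and, added later, removal of the span trend. Gene positions and promoters are from RefSeq GRCh38.p14, where 95.3% of symbols matched. No levels were compared between genes, since transcript lengths were not used here.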

Additional observations from a re-analysis of the deposited data

Results flagged for a closer look

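The 50 µM PFOS effect after recovery differed from that at 24 h for 8 of 39 members (20.5%) in edgeR's interaction test, each adjusted over all genes. That share was close to the 19.1% of all genes called. The differences in log2 effect were 1.50 for CTSC, 0.97 for LIPA, 1.11 for CD63, 1.68 for ATP6V0E1, 0.98 for ATP6V1D and 1.53 for ATP6V1F, all toward a higher level after recovery. They were -1.20 for TPP1 and -0.83 for PSAP, toward a lower level. Of these, 6 kept their call without replicate 2 of 50 µM after recovery, and LIPA and ATP6V1D did not. Only CTSC and ATP6V0E1 kept it under every alternative.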

How the results depend on the processing

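The 52 calls of a member in a comparison were repeated under the alternatives, 776 repeats in all: 647 kept the call, 129 lost it and 0 changed direction, and 11 of the 52 kept it under every alternative. Thinning every library to the smallest total left 7 of 11 member calls in 50 µM PFOS at 24 h, 6 of 13 after recovery, 1 of 5 for 50 against 25 µM at 24 h, 4 of 15 after recovery and 4 of 8 for the change of the 50 µM effect between times, where fewer reads are used by construction. All-gene calls under thinning were 472 of 1848 at 24 h and 803 of 2800 after recovery in 50 µM, so depth limits what was called. Fitting only the compared groups gave 1 call (CTSD) in place of 0 in 25 µM at 24 h, 15 in place of 11 in 50 µM at 24 h (ATP6V1F, CD63, CTSA and CTSD added), 12 in place of 5 for 50 against 25 µM at 24 h, 6 in place of 13 in 50 µM after recovery, 0 in place of 15 for 50 against 25 µM after recovery and 5 in place of 8 for the 50 µM change between times, and the cause was not tested. DESeq2 and a minimum count of 30 each gave 15 in place of 13 in 50 µM after recovery (GAA and PPT1 added) and 12 in place of 11 at 24 h (CTSA added). Without the count filter these were 15 (GAA and TFE3 added) and 14 (ATP6V1F, CD63 and CTSD added). Without the count filter 8 were called for 50 against 25 µM at 24 h and 1 (TPP1) for vehicle between times. Leaving out 1 library gave 8 to 10 member calls in 50 µM at 24 h, 11 to 16 after recovery, 2 to 4 and 6 to 20 for 50 against 25 µM at 24 h and after recovery, 6 to 15 for the 50 µM change between times, and 0 elsewhere. No scaling moved the median of all genes by over 0.1. Replicate numbers do not pair the libraries: deviations of same-numbered libraries correlated from -0.338 to 0.394, and 2 of 18 libraries correlated best with their own number. With the replicate block the member calls were 12 in 50 µM at 24 h (CD63 added), 13 after recovery, 5 and 14 for 50 against 25 µM (ASAH1 lost) and 8 for the change between times.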
